A study of Mus musculus with 36 samples.

Results

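The 6 genes described here, H19, Igf2, Dlk1, Meg3, Rasgrf1 and Zdbf2, belong to imprinted clusters with a region that is methylated on the chromosome from the father. They were taken as a named set out of 34653 annotated autosomal genes, and every CpG from 20 kb upstream to 20 kb past each gene in the mm9 annotation was read in windows of 500 bp. A window was tested when it had 5 or more CpGs and no animal had under 30 counts in it (calls summed over the CpGs, so that a read over several CpGs is counted at each), which left 428 windows here and 1456902 on the autosomes. Bisulfite sequencing of the whole genome was run on liver DNA of 24 mice, and in this method unmethylated cytosines are converted and read as thymine. Parents were inbred, either C57BL/6N, called B6, or C3H/HeN, called C3. The offspring were B6C3F1, from a B6 dam and a C3 sire, and C3B6F1, from a C3 dam and a B6 sire. Each strain or cross gave 3 males and 3 females, so that there were 8 groups of 3 animals. All were killed at the same age, the dams after bearing pups and the F1 females as virgins. The study took 3 families of each cross. Dams and virgin females therefore also differed in genotype, since the first were inbred and the second hybrid.

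In the mm9 annotation H19 lies at chr7:149761434-149764048 and Igf2 at chr7:149836673-149852721, both on the minus strand. Dlk1 lies at chr12:110691033-110701546, Meg3 at chr12:110779211-110809936, Rasgrf1 at chr9:89804613-89921814 and Zdbf2 at chr1:63319839-63361150, all on the plus strand.

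A genomic imprint is a methylation mark that is set in the egg or in the sperm and then kept on that parent's chromosome in the tissues of the offspring. At most imprinted clusters the mark is set in the egg. At a few, among them H19/Igf2, Dlk1/Meg3 and Rasgrf1, it is set in the sperm. At Zdbf2 the methylation of the paternal chromosome upstream of the gene is gained after fertilization. H19 and Meg3 are long non-coding RNAs made from the maternal chromosome, Igf2 is a fetal growth factor, Dlk1 is a membrane protein of the Notch ligand family, Rasgrf1 is an exchange factor for Ras, and Zdbf2 is a zinc finger gene, and these last 4 are made mainly from the paternal chromosome in tissues where they are imprinted. A region methylated on one parental chromosome and free of methylation on the other reads as about 50% in DNA from both. The counts used here join both chromosomes, so a level near 50% does not show which chromosome carried the mark, or whether the cells of the liver differed among themselves.

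The sequence best known among these regions is that upstream of H19, where the insulator protein CTCF binds the unmethylated chromosome. The CTCF core motif of the H19 control region, with its variable positions left free, was searched on both strands. Within 20 kb of the 6 genes it had 4 matches, all in the block of intermediate methylation upstream of H19 and all on the minus strand, which is the strand of the gene. They are shown for that reason, from the mm9 genome, 5′ to 3′ on the minus strand, with the motif in capitals:
H19 CTCF match 1, chr7:149766206-149766235: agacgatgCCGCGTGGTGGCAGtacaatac
H19 CTCF match 2, chr7:149766661-149766690: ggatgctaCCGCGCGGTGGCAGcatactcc
H19 CTCF match 3, chr7:149767687-149767716: cagggttgCCGCACGGCGGCAGtgaagtct
H19 CTCF match 4, chr7:149767931-149767960: gggagttgCCGCGTGGTGGCAGcaaaatcg

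The CpGs inside the matches had a methylation level, pooled over the 24 livers, of 47.7% at match 1, 45.9% at match 2, 52.7% at match 3 and 51.2% at match 4. The matches lay at -2.17, -2.62, -3.65 and -3.89 kb from the H19 start site. Of all windows tested on the autosomes, 0.0253% held the motif, as 369 of 1456902. At the 6 loci it was in 3 of the 67 windows of intermediate methylation defined in the next paragraphs and in none of the other 361, where 0 matches say only that these letters were not there.

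Further stretches are shown because they hold the densest CpGs of the blocks at Meg3 and Rasgrf1, and because one beside the Zdbf2 blocks lay in a window that differed strongly between reciprocal crosses. Capitals mark CpGs, and all are on the plus strand of mm9:
Meg3 upstream block, chr12:110766504-110766663: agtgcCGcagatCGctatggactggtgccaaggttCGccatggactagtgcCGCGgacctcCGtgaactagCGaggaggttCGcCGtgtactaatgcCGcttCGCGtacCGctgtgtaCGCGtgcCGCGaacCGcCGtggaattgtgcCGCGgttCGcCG
Rasgrf1 upstream block, chr9:89774493-89774652: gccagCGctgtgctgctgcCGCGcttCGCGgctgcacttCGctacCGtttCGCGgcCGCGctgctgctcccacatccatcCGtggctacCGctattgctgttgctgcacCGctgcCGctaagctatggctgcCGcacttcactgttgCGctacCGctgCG
Zdbf2 upstream window, chr1:63306118-63306277: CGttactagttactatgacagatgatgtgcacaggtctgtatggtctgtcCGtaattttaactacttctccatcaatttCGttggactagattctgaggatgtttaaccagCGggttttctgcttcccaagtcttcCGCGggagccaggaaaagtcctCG

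The Meg3 stretch held 23 CpGs and read 54.3% over the 24 livers, and the Rasgrf1 stretch held 19 CpGs and read 51.8%. The Zdbf2 stretch held 7 CpGs and read 42.0% in B6 parents and 38.8% in C3 parents, but 26.4% in B6C3F1 and 61.1% in C3B6F1. The hexamer TGCCGC, bound by the imprint-keeping zinc finger protein ZFP57 when methylated, was searched on both strands as well. It had 6 of its 7 matches at the H19 locus inside the blocks, 6 of 13 at Meg3 and 3 of 6 at Zdbf2, and none inside the blocks within 20 kb of Igf2, Dlk1 or Rasgrf1. The block of 153 CpGs farther upstream of Rasgrf1, from which the Rasgrf1 stretch above was taken, held 9 matches. It was in 7 of the 67 intermediate windows (10.4%), in 24 of the other 361 (6.65%) and in 7.01% of all windows tested, and 4 of its matches, all at H19, overlap a CTCF match.

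Read depth allowed levels of single windows to be compared between animals. The autosomal counts ran from 365740739 to 619888157 per animal, which is 19.4 to 32.8 per CpG, and C3 parents had 0.914 times the counts of B6 parents. Methylation over all autosomal CpGs was 75.0 to 77.5% in every animal. At the windows of the start sites, the 6 hepatocyte genes Alb, Apoa1, Ttr, Serpina1a, Cyp2e1 and Hnf4a read 14.7 to 68.9% with a median of 26.0%, and the 3 leukocyte genes with counts, of 4 listed, read 64.1 to 89.5%. The endothelial genes Pecam1 and Kdr read 73.9% and 1.94%, and the stellate cell genes Des and Lrat 42.2% and 1.34%. Methylation of a start site was taken as a check of the labelled tissue only.

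A window was called intermediate when its mean methylation, as methylated counts over all counts, lay between 35 and 65% in each of the 8 groups. At the 6 loci this held for 67 of 428 windows, or 15.7%. On the autosomes it held for 65490 of 1456902 windows, or 4.5%. Zdbf2 had 24 of its 71 windows in this class, H19 13 of 45 and Dlk1 12 of 63, while Meg3 had 10 of 89, Igf2 4 of 41 and Rasgrf1 4 of 119, which is 3.36% and lies below the autosomal share. The intermediate windows had a median of 10 CpGs against 7 in the remaining windows of the loci, and their median methylation was 50.1% against 84.0%. Since the band had to hold in every group, windows with a large difference between groups were left out of this class by construction.

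Rasgrf1 differed in where its windows lay. Between 20 and 50 kb from the gene, 20 of its 55 tested windows were intermediate, against 39 of 294 for the 6 loci in that zone. The plot of window methylation by distance shows this stretch far upstream of Rasgrf1, with a start site near 0%.

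**Figure D1:**
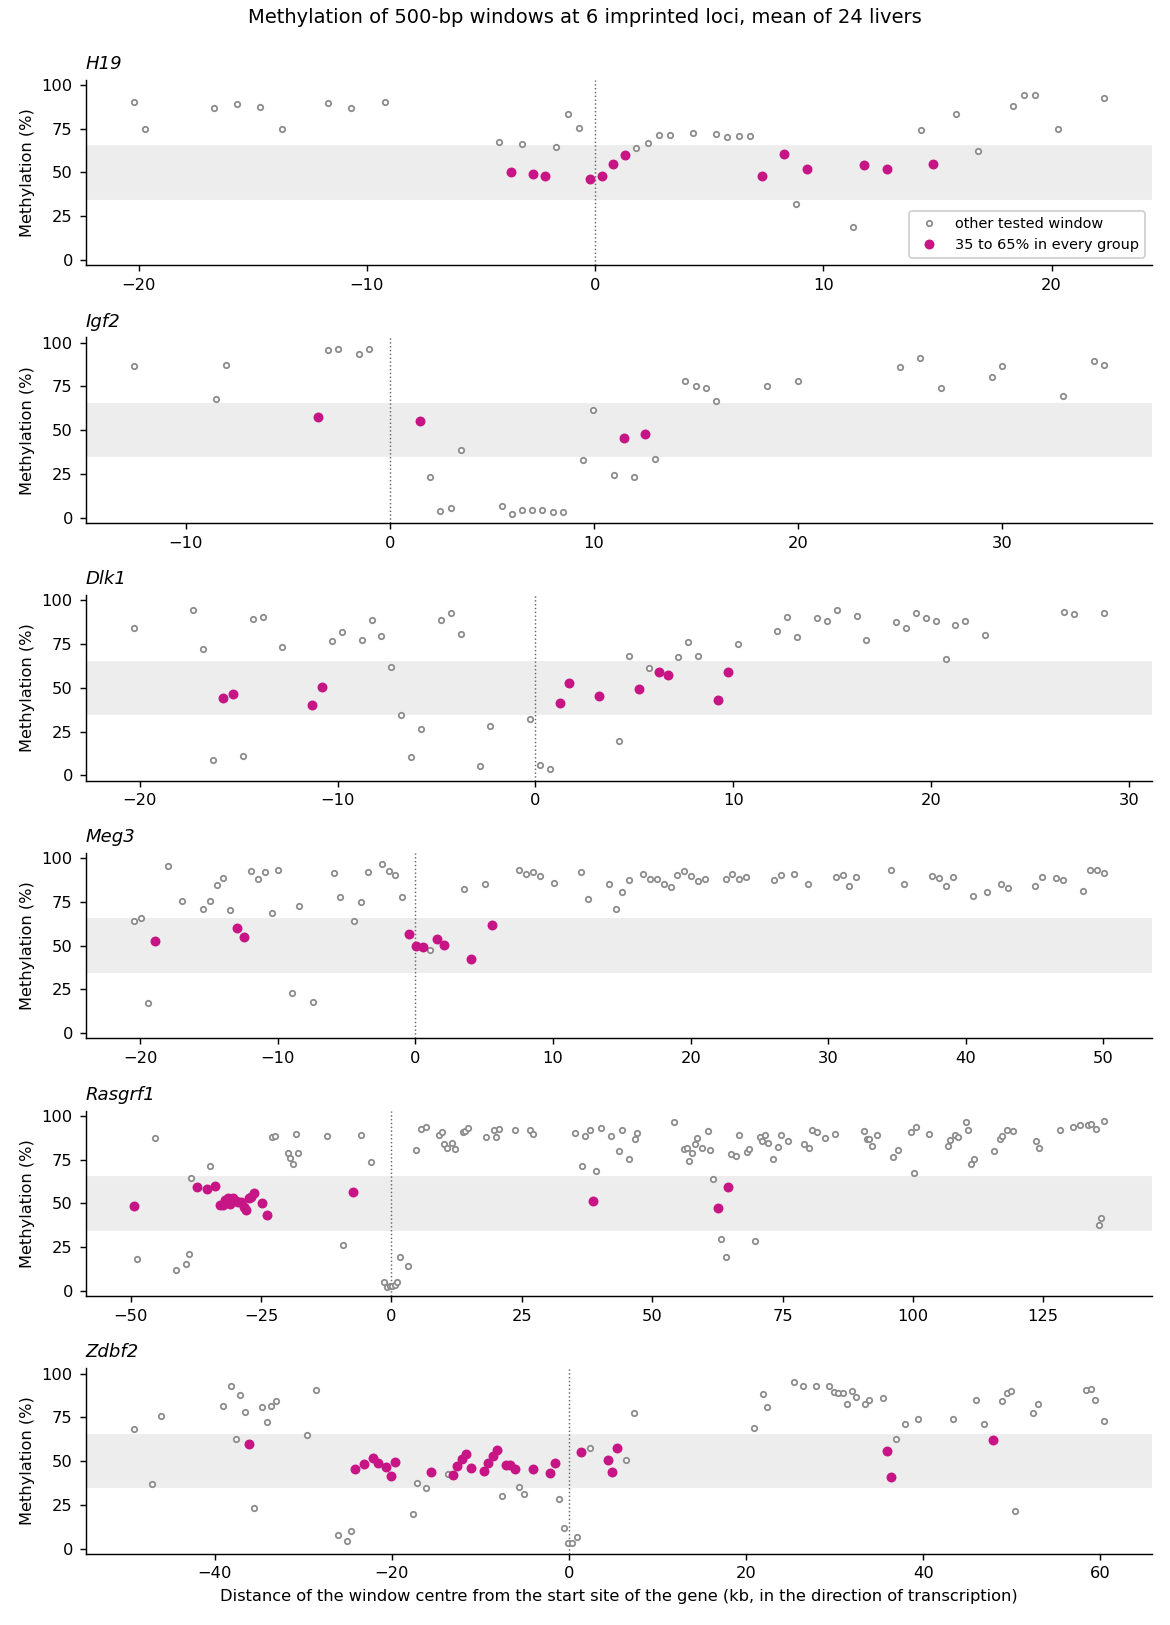
Mean methylation of 24 livers (vertical axis, %) in each tested 500-bp window against its distance from the start site of the gene (horizontal axis, kb in the direction of transcription), with 1 panel per locus and with Rasgrf1 and Zdbf2 drawn to 50 kb upstream. Filled points are windows at 35 to 65% in each of 8 groups, open points the other tested windows, and the grey band marks 35 to 65%; filled points gather upstream of and at the start sites of H19 and Meg3, upstream of Zdbf2, and from -34 to -26.1 kb at Rasgrf1.

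Joining intermediate windows with at most 1 other window between them gave 33 blocks with 773 CpGs in 32997 bp, of which 17 held more than 1 window. Their edges were set from the outermost runs of 5 CpGs with a mean inside the band. A block can read 50% because each CpG does, or because methylated and unmethylated CpGs lie side by side, so each CpG was pooled over the 24 livers and placed in or out of the band. In 12 of the 33 blocks at least 85% of the CpGs were each at 35 to 65%. The same was so in 775 of 57682 blocks on the autosomes, or 1.34%, and the limit of 85% was chosen after the values were seen. Among blocks with at least 30 CpGs it was so in 6 of 10 at these loci and in 27 of 859 on the autosomes (3.14%). Of those 27 blocks, 9 lay within 50 kb of H19, Meg3, Rasgrf1 or Zdbf2, and 7 lay within 50 kb of genes known for maternally methylated control regions, which are Snrpn, Peg3, Mest, Plagl1, Grb10, Peg10 and Igf2r. The other 11 lay near no gene of either list. They overlapped Gnas, Kcnq1, Commd1, Slc38a4, Impact, Trappc9, Jph3, Gm20388 or 6330408A02Rik. No block of Igf2 or Dlk1 was among the 12.

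Upstream of H19, the block with the CTCF matches ran over chr7:149766003-149767991, from -3.94 to -1.96 kb, in intergenic DNA. It held 63 CpGs in 1989 bp, of which 58 were each at 35 to 65%, and no single-nucleotide variant (SNV) between the strains. Methylation was 51.8% ± 1.12 (SD, n = 6) in B6 with animals from 50.6 to 53.5% and a median of 51.8%, and 51.5% ± 2.95 in C3 with animals from 48.4 to 54.9% and a median of 51.0%. It was 50.8% ± 2.42 in B6C3F1, from 47.0 to 53.6% with a median of 50.8%, and 51.7% ± 2.45 in C3B6F1, from 47.4 to 54.8% with a median of 51.7%. The 4 ranges overlapped almost wholly. The crosses differed by -0.89 points (two-sided exact permutation test over 6 and 6 animals, p = 0.53) and the strains by 0.38 points (p = 0.76, same test). In the 1 kb before and after the block methylation was 74.6% and 73.6%.

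At the start of H19 itself a further block covered chr7:149762560-149764477, from -0.43 to 1.49 kb, with 64 CpGs at 52.3% and 87.5% of them in the band. Its window with the annotated start site read 46.1% over all livers, with single animals from 29.1 to 61.9%. The SD within groups was 3.74 points in this block against 2.39 in the upstream block, with 22.3 against 30.8 counts per CpG and animal. The other 3 H19 blocks lay 7.06 to 14.9 kb past the start site, downstream of the gene, and had 16.7 to 53.3% of their CpGs in the band. One of these, chr7:149751120-149752493, was higher in B6C3F1 (60.2 to 64.5%, median 63.1%) than in C3B6F1 (54.3 to 60.6%, median 58.9%), by 4.34 points (exact permutation p = 0.00649), with ranges that overlapped. The same block was lower in B6 (55.2 to 61.9%, median 58.9%) than in C3 (61.1 to 66.9%, median 64.8%), by -5.62 points (exact permutation p = 0.00433).

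**Figure D2:**
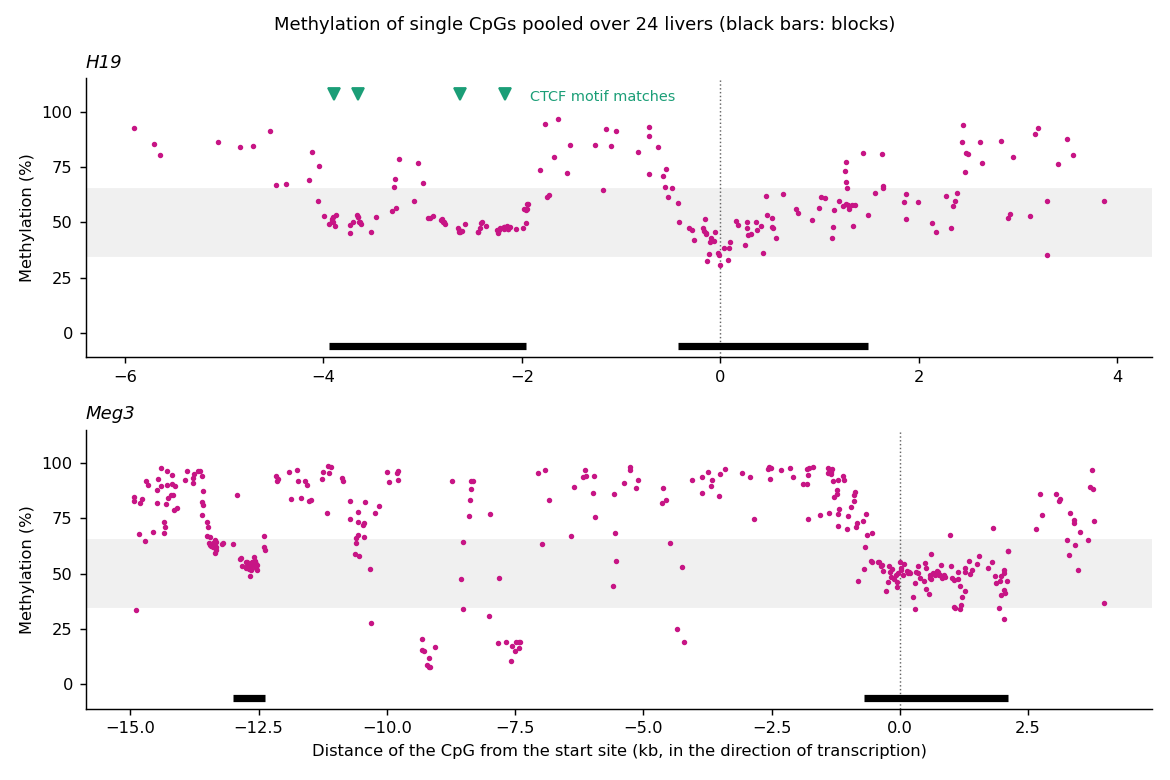
Methylation of each CpG pooled over 24 livers (vertical axis, %) against its distance from the start site (horizontal axis, kb) at H19 (top) and Meg3 (bottom), with black bars for blocks, triangles for CTCF motif matches and a grey band at 35 to 65%. At H19 the CpGs under the upstream bar lie close to 50%, with 74.6% and 73.6% in the 1 kb on each side, and at Meg3 those under the bar at -13.0 to -12.4 kb lie at 56.5%, with 72.7% before and 89.8% after.

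Meg3 had a pair of blocks above that limit of 85%. The upstream block, chr12:110766212-110766835, lay in intergenic DNA from -13.0 to -12.4 kb of the Meg3 start site, held 37 CpGs in 624 bp and read 56.5%, with 72.7% in the 1 kb before it and 89.8% in the 1 kb after it. This is the place of the intergenic control region of the Dlk1/Meg3 cluster. Of its CpGs 94.6% were each in the band. B6 animals ran from 50.8 to 66.6% with a median of 54.0%, and C3 animals from 51.7 to 60.0% with a median of 56.6%. B6C3F1 animals ran from 57.1 to 66.1% with a median of 60.5%, and C3B6F1 animals from 45.9 to 58.0% with a median of 54.6%. The F1 ranges overlapped between 57.1 and 58.0%, and the means differed by 8.25 points, B6C3F1 being higher (exact permutation p = 0.0108). C3 parents had 0.94 times the counts of B6 parents there.

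The second Meg3 block, chr12:110778506-110781316, spanned the start site from -0.70 to 2.10 kb, over an exon of this RNA. It was the widest block within 20 kb of Meg3, with 96 CpGs in 2811 bp at 51.0%, and 88.5% of its CpGs were in the band. Here the crosses differed the other way. B6C3F1 animals lay at 43.2 to 50.4% (median 49.4%) and C3B6F1 animals at 51.2 to 56.9% (median 53.2%), with no overlap, a difference of -5.20 points and the smallest p that this test can give (exact permutation p = 0.00216). B6 animals at 49.3 to 55.9% and C3 animals at 45.6 to 55.4% overlapped and differed by 1.24 points (p = 0.53, exact). C3 parents had 0.81 times the counts of B6 in this block, and down to 0.207 times at single CpGs. Whether read depth underlies the difference between crosses was not tested. Over the 53 CpGs where C3 parents had at least 0.8 times the counts of B6, a choice made after seeing the data, the crosses differed by 0.13 points (exact permutation p = 0.94). The other 3 Meg3 blocks had 6 to 9 CpGs each and 1 to 4 of them in the band.

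Over the 33 blocks the exact test between crosses gave p below 0.05 in 5 blocks, 2 at Meg3 and 1 each at H19, Igf2 and Dlk1. The autosomal share for blocks is 6.92%, as 3989 of 57682. Between the parental strains it did so in 4 of 33 blocks, with an autosomal share of 22.7%, as 13097 of 57682. Rasgrf1 and Zdbf2 had no block among the 5 that passed between crosses. Over CpGs with C3 counts of at least 0.8 times B6, a choice made after seeing the data, 3 of the 5 still passed. They differed by 8.01 points upstream of Meg3 (exact permutation p = 0.0173) and -4.59 points at Igf2 (exact permutation p = 0.0216). The H19 block kept 4.34 points (exact permutation p = 0.00649), since all its 21 CpGs met the limit. Blocks were formed from windows inside the band in every group, which selects against large differences between crosses or strains. The Zdbf2 windows chr1:63306001-63306500 and chr1:63326001-63326500 read 26.5% and 30.2% in B6C3F1, below the band, and lay in no block. The block test therefore cannot show whether the crosses were alike at Zdbf2 as a whole, only within its blocks.

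**Figure D3:**
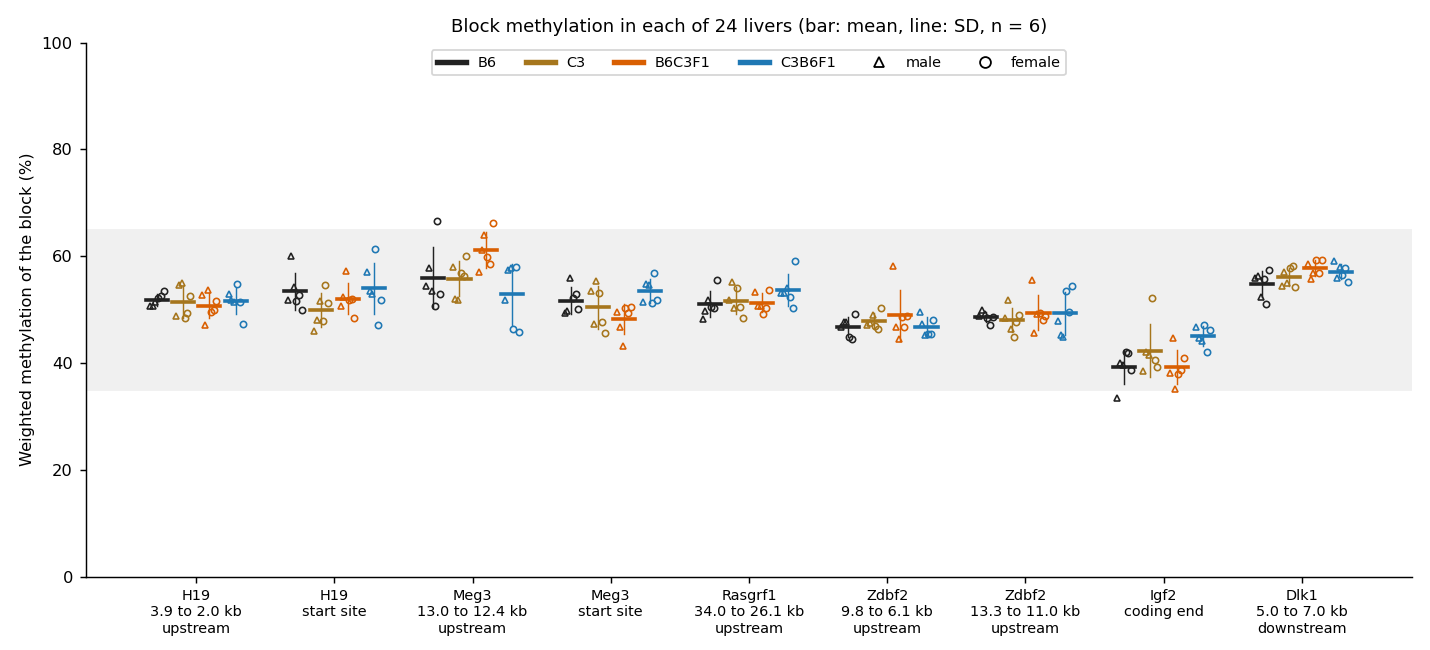
Weighted methylation (vertical axis, %) of 9 blocks in each of 24 livers, by strain or cross (colour) and sex (triangles male, circles female), with a bar at the mean and a line for the SD (n = 6) and a grey band at 35 to 65%. The 4 colours overlap in the H19, Rasgrf1 and Zdbf2 blocks, while B6C3F1 lies above C3B6F1 in the upstream Meg3 block and below it in the Meg3 start-site block and at the coding end of Igf2.

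Igf2 had little of this kind. Its 3 blocks held 45 CpGs in all and 28.6 to 71.4% of them in the band. The largest, chr7:149840024-149841447, covered the coding end of the gene and Mir483, with 31 CpGs at 41.5%. B6C3F1 animals at 35.2 to 44.7% (median 38.4%) lay below C3B6F1 animals at 42.1 to 47.1% (median 45.4%) by -5.83 points, with overlapping ranges (exact permutation p = 0.00866). B6 animals were at 33.5 to 42.2% and C3 animals at 38.5 to 52.3%, a difference of -3.03 points (p = 0.30, exact). The window of the outermost Igf2 start site read 58.0%, but held only 2 CpGs and was not tested. A small block in the neighbouring Igf2as, chr7:149856042-149856303, had 7 CpGs, of which 2 were in the band. B6 animals there lay at 53.7 to 60.3% and C3 animals at 49.8 to 54.5%, 5.89 points lower (exact permutation p = 0.00433).

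Dlk1 had 6 blocks with 133 CpGs in all, and 33.3 to 60.0% of the CpGs of each were in the band. They lay both upstream of the gene and in its body, and its start-site window read 6.19%. The largest block, chr12:110696019-110697995 in the coding exons, had 43 CpGs at 56.5%, with 17 of them in the band, 9 above 80% and 3 below 20%. It had the smallest SD within groups of all 33 blocks, 1.97 points, with animals from 51.0 to 59.3%. The block over chr12:110692008-110692664, near the start, was 46.9% in B6C3F1 (median 48.5%) and 41.4% in C3B6F1 (median 42.3%). The ranges overlapped and the means differed by 5.55 points (exact permutation p = 0.0455). C3 parents had 0.77 times the counts of B6 in this block. Over its 12 CpGs with at least 0.8 times the counts, a choice made after seeing the data, the difference was 4.30 points (p = 0.15, exact). In the whole block, p rose above 0.05 in 9 of 12 repeats with 1 animal left out. An intron block of 5 CpGs, chr12:110694024-110694500, was lower in B6 (34.7 to 48.7%) than in C3 (42.6 to 51.9%) by -5.85 points (exact permutation p = 0.0368), and p rose above 0.05 in 8 of 12 such repeats.

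Within 20 kb of the 6 genes, the strains differed most beside Dlk1. The test across all autosomal windows (limma on the log2 of methylated over unmethylated counts, with Benjamini-Hochberg adjustment) called 17 of the 428 windows between B6 and C3 parents, 7 higher and 10 lower in B6. The autosomal share is 6.63%, made of 2.34% higher and 4.29% lower. With a difference of at least 20 points, 2 windows were called, and the autosomal share is 0.494%. One was chr12:110685001-110685500, an intergenic window of 6 CpGs at -5.78 kb from Dlk1. B6 animals lay at 33.1 to 38.9% (median 36.4%) and C3 animals at 6.61 to 13.0% (median 11.2%), with a difference of 25.7 points and a log2 difference of 2.20 ± 0.173 (SE; limma adjusted p = 3.59e-11). B6C3F1 read 29.5% and C3B6F1 30.0%. C3 parents had 0.44 times the counts of B6 there, and the window held 5 SNVs. The window just before it, with 11 CpGs, no SNV and 0.87 times the counts, read 18.1% in B6 and 2.41% in C3, with 11.1% for B6C3F1 and 10.1% for C3B6F1 (limma adjusted p = 1.02e-10 for the parents), so that both crosses lay between the strains. A larger difference lay beyond 20 kb, between Dlk1 and Meg3, in the intergenic window of 10 CpGs at -31.5 kb from Meg3. B6 animals read 39.0 to 55.1% there and C3 animals 71.2 to 76.5%, -28.5 points apart with no overlap (limma adjusted p = 1.65e-11), and B6C3F1 read 57.5% and C3B6F1 55.7%.

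The other window of at least 20 points was chr1:63370001-63370500, intergenic, past the end of Zdbf2. B6 animals lay at 24.4 to 41.3% (median 31.9%) and C3 animals at 4.03 to 15.6% (median 12.0%), 20.9 points lower (limma adjusted p = 1.52e-06). B6C3F1 read 22.4% and C3B6F1 20.2%. Neither window was in the intermediate class. In the Dlk1 intron, chr12:110695001-110695500 with 7 CpGs read 23.5% in B6 and 9.67% in C3 (limma adjusted p = 1.19e-05), with 0.59 times the counts in C3. The remaining called windows differed by 2.14 to 15.7 points, and 7 of the 17 were at Rasgrf1, 7 at Dlk1 and 1 each at Igf2, Meg3 and Zdbf2, with none at H19.

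Rasgrf1 had its intermediate methylation far from the gene. One block, chr9:89770654-89778493, ran from -34.0 to -26.1 kb upstream of its start site, beyond the 20 kb of the other values. It joined 15 intermediate windows, more than any other of the 57682 blocks on the autosomes, and held 153 CpGs in 7840 bp at 51.9%, with 91.5% of the CpGs in the band. It holds the place of the Rasgrf1 control region with its tandem repeat, on which methylation is set in the male germ line. B6 animals ran from 48.3 to 55.6% (median 50.4%), C3 from 48.5 to 55.2% (median 51.1%), B6C3F1 from 49.1 to 53.7% (median 50.7%) and C3B6F1 from 50.3 to 59.1% (median 53.1%). These ranges overlapped, the crosses differed by -2.34 points (p = 0.13, exact) and the strains by -0.65 points (p = 0.65, exact). The 4 blocks within 20 kb of the gene were single windows of 5 to 8 CpGs, and the start-site window read 2.74%. One of these, chr9:89869046-89869479 in an intron, was 62.0% in B6 and 57.2% in C3, a difference of 4.78 points (exact permutation p = 0.0152).

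Zdbf2 had the most blocks. Between -24.3 and -1.35 kb of its start site lay 6 of them. The block chr1:63310005-63313767 had 7 windows and 91 CpGs at 47.6%, with 87.9% of them in the band. Only the end of this block nearer Zdbf2 overlapped the transcript Gm11608, and the rest was intergenic. The block chr1:63306581-63308888 had 51 CpGs at 48.9%, with 92.2% in the band. The block chr1:63295510-63300499, which reaches beyond 20 kb, had 71 CpGs at 45.8%, with 87.3% in the band. In the first of these, B6 animals ran from 44.4 to 49.1%, C3 from 46.4 to 50.4%, B6C3F1 from 44.6 to 58.2% and C3B6F1 from 45.2 to 49.6%. The crosses differed by 2.13 points in it (p = 0.40, exact), and by 0.13 points in the second (p = 0.95, exact). In the gene body, the block chr1:63324074-63325469 had 15 CpGs, each of them in the band, at 51.1%. The Zdbf2 start site itself, with 62 CpGs, read 3.15%. Of the blocks of Zdbf2, the pair at the 3′ end, with 31 and 5 CpGs, had 29.0% and 60.0% of their CpGs in the band.

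Start sites were also read at the neighbours of these clusters. Among 18 neighbouring genes with counts, 8 were below 20%, 7 above 80%, and 1 was intermediate in every group. That gene was Gpr1 at 42.6%, next to Zdbf2 on chromosome 1. The autosomal share of intermediate windows is 4.5%, and 18 genes are too few to set against it. The windows of Ins2, Th, Tnnt3, Ctsh and Dytn had under 5 CpGs and were not tested. Of the 6 genes themselves, H19 at 46.1% and Meg3 at 49.5% were intermediate at the start site in every group.

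Among single windows, the limma test called differences between reciprocal crosses at Zdbf2 and at no other of the 6 loci, unlike the block tests given above. The limma test called 28 windows on the autosomes at an adjusted p below 0.05, which is 0.00192%, and 3 of them were in the 71 windows of Zdbf2. With at least 20 points the numbers are 10 windows, or 0.000686%, and 2. The unadjusted p was below 0.05 in 42 of the 428 windows, and in 6.69% of windows on the autosomes. At all 3 windows B6C3F1 was lower, a direction called in 0.000961% of autosomal windows.

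In chr1:63326001-63326500, in a Zdbf2 intron with 7 CpGs, B6C3F1 animals lay at 20.9 to 43.2% (median 29.4%) and C3B6F1 animals at 64.5 to 69.6% (median 66.5%), with no overlap. B6 animals lay at 44.7 to 66.4% and C3 animals at 47.9 to 56.6%, all above the B6C3F1 animals, and the highest B6 animal lay within the range of C3B6F1. The cross difference was -36.5 points and -2.20 ± 0.179 on the log2 scale (SE; limma adjusted p = 8.96e-08), and was the largest of all 28. In chr1:63306001-63306500, intergenic with 12 CpGs, B6C3F1 animals lay at 23.7 to 29.7% (median 26.5%) and C3B6F1 animals at 47.0 to 67.6% (median 62.7%), again apart, with B6 at 41.9% ± 6.05 and C3 at 41.7% ± 3.83 (SD, n = 6). The difference was -32.7 points and -2.01 ± 0.178 on the log2 scale (SE; limma adjusted p = 5.96e-07). In chr1:63322001-63322500, in an intron with 5 CpGs, B6C3F1 animals lay at 43.8 to 52.9% and C3B6F1 animals at 62.2 to 72.4%, a difference of -17.9 points (limma adjusted p = 0.0147), with B6 at 53.9% ± 3.73 and C3 at 60.3% ± 6.30 (SD, n = 6). That call was lost in 6 of 24 fits with 1 animal left out.

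In each of these windows C3 parents had fewer counts than B6 parents. They had 0.35 times the counts of B6 parents in the intron window of 7 CpGs, 0.42 times in the upstream window and 0.75 times in the window of 5 CpGs. SNVs did not mark all of them: the first held 2, the last held 5, and the upstream window held 0, with 0 more within 500 bp on each side. The list holds single-nucleotide variants only, so other differences in sequence could not be seen. A window over an exon of Meg3, chr12:110780001-110780500 with 19 CpGs, had 0.52 times the counts and the largest cross difference of that locus. B6C3F1 animals lay at 31.1 to 43.5% (median 34.0%) and C3B6F1 animals at 46.9 to 75.5% (median 51.4%), -20.4 points apart, and the adjusted p of 0.29 (limma) missed the threshold. The largest cross differences of single windows within 20 kb of the other genes were -6.37 points at the H19 start site (limma adjusted p = 0.797), -7.61 points in a coding exon of Igf2 (0.631), 7.30 points in an exon near the start of Dlk1 (0.607) and 5.66 points in a Rasgrf1 intron (0.681). From 20 to 50 kb, a window of 6 CpGs in the upstream Rasgrf1 block, chr9:89777001-89777500, had -15.8 points (limma adjusted p = 0.329) with 0.916 times the counts, and an intron window of 8 CpGs at the Meg3 locus, chr12:110846501-110847000, had 13.9 points (limma adjusted p = 0.507) with 0.657 times the counts.

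Single CpGs showed the pattern more sharply. At position 63326401 on chromosome 1, the counts summed over 6 animals were 184 for B6 and 10 for C3, then 116 for B6C3F1 and 109 for C3B6F1. Methylation there was 51.1% in B6 and 20.0% in C3, the latter on its 10 counts. It was 9.48% in B6C3F1 but 81.7% in C3B6F1. In the same window, the 2 CpGs with C3 counts of 0.71 and 0.87 times B6 read 53.8% and 58.3% in B6C3F1, and 60.3% and 65.8% in C3B6F1. At position 110780348 on chromosome 12, in Meg3, B6C3F1 read 11.6% and C3B6F1 81.3%, with 0.275 times the counts in C3, and at 110780489, with 0.877 times, they read 52.9% and 54.3%.

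**Figure D4:**
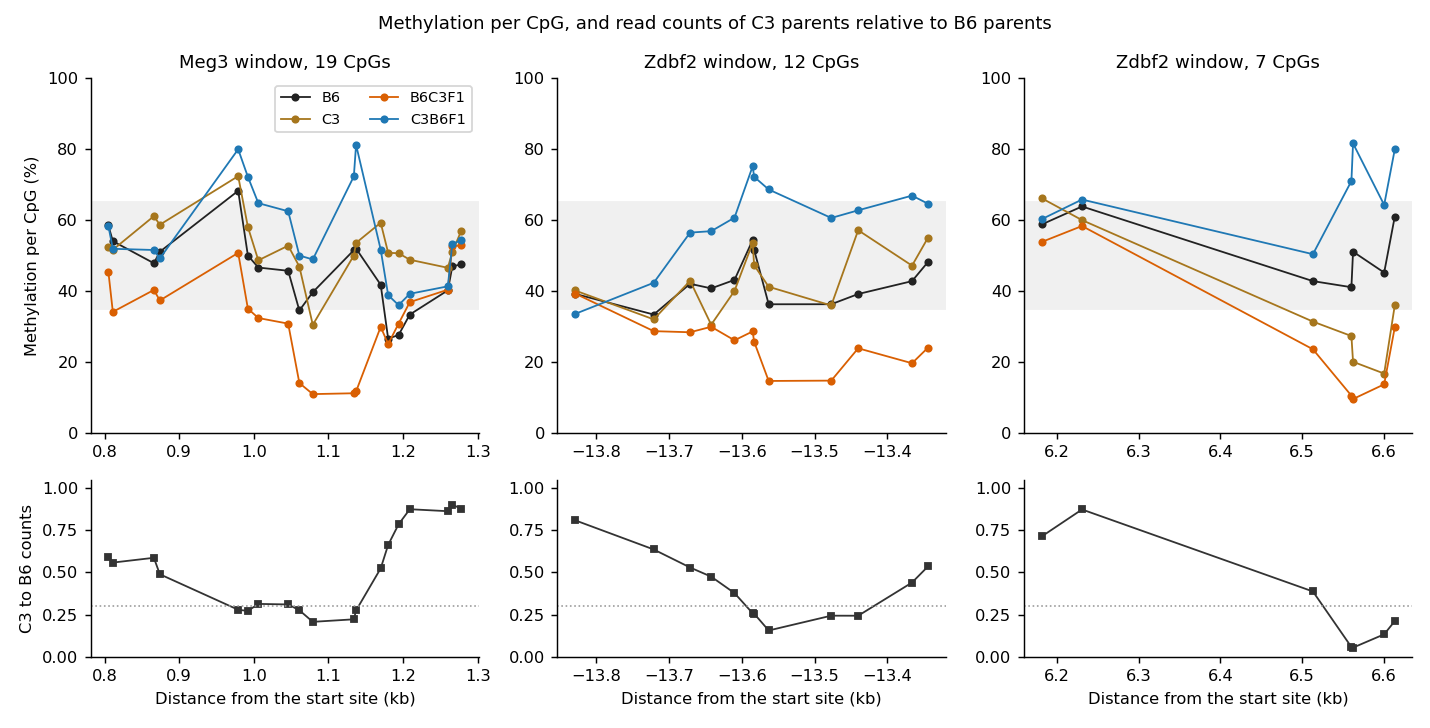
Methylation per CpG in the 4 strains or crosses (top, %, counts of 6 animals summed) and counts of C3 parents relative to B6 parents (bottom, ratio) against distance from the start site (kb), in the Meg3 exon window, the Zdbf2 upstream window and the Zdbf2 intron window; the dotted line marks 0.3 and the grey band 35 to 65%. In both Zdbf2 windows the B6C3F1 line lies below the band and the C3B6F1 line above B6 at each CpG with a ratio under 0.3. In the Meg3 window the crosses lie farthest apart, at 11.6% in B6C3F1 and 81.2% in C3B6F1, at a CpG with a ratio of 0.275, while B6C3F1 reads 50.7% at a CpG with a ratio of 0.279.

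Within 20 kb of the 6 genes, CpGs at 35 to 65% in B6 parents were sorted by the C3 to B6 count ratio alone, an arrangement made after the data were seen and given as a description. Ratios under 0.3 occurred there at Meg3 and Zdbf2 only. Neighbouring CpGs share reads and animals, so counts of CpGs by direction are not counts of independent observations. The share of CpGs with such ratios over all autosomes was not computed. At Meg3 there were 6 such CpGs, where B6 parents read 46.5% and C3 parents 47.5%. The 6 B6C3F1 animals had 15.6 to 26.0% and the 6 C3B6F1 animals 60.0 to 70.4% over them, and each of the 6 CpGs was lower in B6C3F1. Of these CpGs, 4 lie in the exon window given above. At Zdbf2 there were 12 such CpGs, with 46.4% in B6 and 43.9% in C3. B6C3F1 animals had 18.4 to 31.6% and C3B6F1 animals 56.7 to 74.8%, and 11 of the 12 CpGs were lower in B6C3F1. Of these 12 CpGs, 9 lie in the windows of 12 and of 7 CpGs already called between the crosses, so they are not a separate observation. The 3 others lie elsewhere at the locus. At position 63358844 B6C3F1 read 39.5% and C3B6F1 52.0%, at 63373331 they read 48.0% and 33.3%, and at 63376515 60.0% and 70.7%. F1 animals had 0.51 times the counts of B6 at these Meg3 CpGs and 0.616 times at those of Zdbf2, so they lost fewer counts than C3 parents. The same choice from 20 to 50 kb, outside the 20 kb of every member, gave 8 CpGs upstream of Rasgrf1, of which 1 lies in the block of 153 CpGs and each was lower in B6C3F1. Over these 8 CpGs B6 read 49.9%, C3 48.5%, B6C3F1 30.3% and C3B6F1 66.3%. The other CpGs in that zone did not share a direction: of 4 at Meg3, 1 was lower and 3 were higher in B6C3F1, of 2 at Zdbf2, 1 was lower and 1 higher, and the 1 at Dlk1, also among those of Meg3, was lower.

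With ratios of 0.3 to 0.8 the pooled differences were smaller, -8.51 points over 51 CpGs at Meg3 and -13.1 points over 45 CpGs at Zdbf2. They were -5.09 points over 13 CpGs at Igf2, -0.47 over 8 at H19 and -0.25 over 30 at Rasgrf1. Dlk1 went the other way, with 6.35 points over 13 CpGs, of which 11 were higher in B6C3F1. From 0.8 upward the pooled differences were 2.63 points over 139 CpGs at Meg3, 0.72 points over 252 CpGs at Zdbf2 and -0.27 points over 189 CpGs at H19. At the genes known for maternally methylated regions 10 CpGs had a ratio under 0.3. The 8 at Snrpn read 23.4 points higher in B6C3F1 with 8 of 8 higher, and 1 at Plagl1 read 56.2 points higher, while 1 at Grb10 differed by -13.3 points. Here too the CpGs of a locus come from the same animals, and near ones share reads, so they are not independent observations. In B6C3F1 the maternal chromosome is of B6 origin and in C3B6F1 of C3 origin. Which chromosome the remaining reads came from was not tested, since the counts join both.

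The same sorting was made for windows. Of the 85 windows within 20 kb of the 6 genes with a 24-animal mean of 35 to 65%, 4 had a ratio under 0.6 and all 4 were lower in B6C3F1, with a median of -26.6 points. From 0.6 to 0.8 there were 6, of which 4 were lower, and from 0.8 there were 75, of which 32 were lower and 43 higher, within -7.54 and 9.03 points. Across these 85 windows the cross difference and the ratio had a Pearson r of 0.669 and a Spearman rho of 0.178. Without the 4 windows under 0.6 the values were 0.219 and 0.051 over 81 windows, so the relation rests on those 4. The windows share the same 24 libraries, and neighbouring ones share reads. Most autosomal windows at 35 to 65% in B6 with low C3 depth had no large cross difference. Among windows at that level, most of those with at least 20 points had low C3 depth. This did not hold for all windows called between the crosses, of which 9 of 28 had a ratio under 0.6. Of all windows tested, 4.98% had such a ratio. Of 6197 autosomal windows at 35 to 65% in B6 with a ratio under 0.6, 5 were lower and 3 higher in B6C3F1 by at least 20 points, which is 0.129%. Of the 5 lower, 3 are the Zdbf2 and Meg3 windows described above, and 1 of the 3 higher lies at Snrpn, so that 2 lower and 2 higher windows were outside the loci compared here. With ratios of 0.6 to 0.8 it was 0 of 10486 windows, and from 0.8 upward 1 of 101933.

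**Figure D5:**
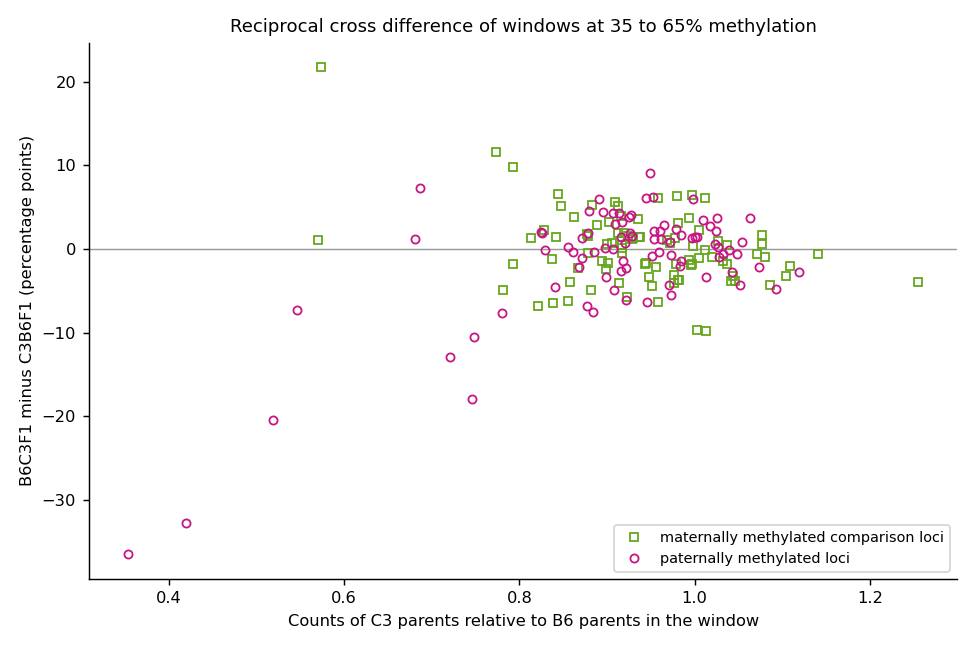
B6C3F1 minus C3B6F1 methylation (vertical axis, percentage points) against the counts of C3 parents relative to B6 parents (horizontal axis, ratio) for windows with a 24-animal mean of 35 to 65%, circles for the 6 paternally methylated loci and squares for the 8 maternally methylated comparison genes. Above a ratio of 0.8 both kinds scatter around 0, and below 0.6 the 4 circles lie from -36.5 to -7.34 points and the 2 squares at 1.08 and 21.7 points.

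The SD within groups had a median of 4.92 points over the 67 windows (quartiles 4.16 and 6.06). For the other intermediate windows of the autosomes the median was 4.44 points (3.79 and 5.20). Binomial counting with every CpG call taken as independent would give medians of 3.16 points at the 6 loci and 3.60 points elsewhere. Calls on the same read are not independent, so these are too small as estimates of counting error, and differences between animals were not separated from it.

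Between sires and dams 1 of 428 windows was called, and it also passed 20 points, with autosomal shares of 0.974% and 0.104%, and of 0.512% for windows lower in sires. It was chr9:89904501-89905000, an intron window of Rasgrf1 with 5 CpGs, 100 kb past the start site and outside every block. The 3 B6 males read 49.2, 49.7 and 58.0%, and the 3 B6 females 73.3, 72.2 and 79.4%. The 3 C3 males read 52.9, 58.3 and 64.8%, and the 3 C3 females 82.6, 75.6 and 86.1%. The sexes did not overlap in either strain, and sires were lower by -22.7 points (limma adjusted p = 5e-06). With windows shifted by 250 bp, 0 windows were called between sires and dams at the 6 loci with at least 20 points. The same window was called between F1 males and F1 females, at -16.5 points (limma adjusted p = 0.0019), as 1 of 428 windows, with an autosomal share of 0.343%, of 0.292% for windows lower in males and of 0.051% for at least 20 points. Between dams and virgin F1 females 2 windows were called, both at Dlk1 and lower in dams, with an autosomal share of 0.181%, of 0.149% for windows lower in dams and of 0.0198% for at least 20 points. They read -6.42 points at chr12:110682501-110683000 (limma adjusted p = 0.0269) and -10.1 points at chr12:110695001-110695500 (limma adjusted p = 0.0284), and lost the threshold in 8 and in 9 of 24 fits with 1 animal left out. Both windows were also called between B6 and C3 parents, being 8.43 and 13.8 points higher in B6. The second read 20.7% in B6 dams, 9.37% in C3 dams, 24.8% in B6C3F1 females and 25.4% in C3B6F1 females. Over the 33 blocks, an exact permutation test of the 6 dams against the 6 virgin F1 females gave p below 0.05 in 3, all lower in dams. The autosomal share is 8.81%, and 6.85% for blocks lower in dams. The Zdbf2 block chr1:63306581-63308888 differed by -2.99 points (exact permutation p = 0.0216), the Zdbf2 block chr1:63304007-63304406 by -5.94 points (exact permutation p = 0.026) and the Dlk1 block chr12:110679515-110680499 by -2.66 points (exact permutation p = 0.0455). Without B6 female replicate 2, 0 blocks passed, and without C3 female replicate 1, C3 female replicate 3 or C3B6F1 female replicate 2, 1 block passed. Since dams were inbred and virgin females hybrid, genotype and history cannot be told apart in windows or blocks.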

How the data were processed

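Per the labels, 24 liver samples were bisulfite sequenced; 12 ChIP samples were not analysed here. The authors deposited whole-number counts of methylated and unmethylated reads per CpG, both strands together, after quality filtering, alignment to mm9 with Bismark 0.7.8 and Bowtie 0.12.8 and removal of duplicates. They kept CpGs present in mm9, B6 and C3 alike, and a list of SNVs. Reads of all strains were aligned to mm9, the genome of C57BL/6J, a substrain related to the B6 used here, and the part of this in the lower C3 counts was not tested. Counts were summed in 500-bp windows with at least 5 CpGs and 30 counts in every animal. Windows on all autosomes were fitted with limma 3.58.1 in R 4.3.3 (trended, robust) on log2((methylated + 1)/(unmethylated + 1)) over 8 groups, and called where the Benjamini-Hochberg adjusted p was below 0.05, with 20 points as a size limit. The study called regions with DSS and Metilene, which were not used here. Blocks were compared by two-sided exact permutation tests over animals, whose smallest p is 0.00216. The methods were tested on simulated data. Animals are the replicates. The study took families, so F1 brothers and sisters are among the animals of a cross. The labels do not say which, and the tests treat all animals as independent. The tests, lists and members were chosen with earlier results of these data known. The rule for named items covered the 6 genes, their blocks, start-site and called windows, the largest cross difference per locus, listed neighbours and comparison genes. Blocks and windows not singled out are given as counts and ranges. Kcnq1ot1 did not match the annotation used. Sequences were read from mm9 by coordinate. Alternatives covered the band, window size and phase, count minimum, scale, model, replicate number and each animal left out.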

Additional observations from a re-analysis of the deposited data

Results flagged for a closer look

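In 7 of 140 block-by-strain groups of 6 animals, 1 animal lay apart from the others by a gap above Dixon's critical share of the group's range, and chance flags about 1 in 20 groups. In the Igf2 coding-end block, C3 female replicate 1 read 52.3%, with the others at 38.5 to 42.0%. In the Igf2 block at chr7:149851042-149851494, B6 male replicate 3 read 40.2%, with the others at 51.1 to 56.1%. In the Igf2as block, B6C3F1 male replicate 1 read 48.7%, with the others at 53.2 to 54.6%. In the Dlk1 block at chr12:110679515-110680499, C3 female replicate 3 read 42.2%, with the others at 46.2 to 48.3%. In the Rasgrf1 intron block at chr9:89867021-89867371, B6 male replicate 2 read 55.4%, with the others at 46.7 to 49.7%. In the Zdbf2 block at chr1:63310005-63313767, B6C3F1 male replicate 1 read 58.2%, with the others at 44.6 to 48.9%. In the Zdbf2 block at chr1:63321161-63321203, of 6 CpGs, C3B6F1 female replicate 1 read 76.2%, with the others at 46.8 to 56.8%. 1 of 70 tests of a difference between sexes passed 0.05: in the H19 block at chr7:149749164-149749462, B6C3F1 minus C3B6F1 was -0.57 points in males and 10.2 points in females, a difference of -10.8 points (exact permutation of sex within each cross, p = 0.035).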

How the results depend on the processing

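The 67 intermediate windows became 39 with a band of 40 to 60% and 106 with flanks of 50 kb, and stayed within 1.5 times under the other 7 settings, while leaving out each animal gave 64 to 68. Cross calls, 2 of at least 20 points, became 1 with at least 100 counts in every animal, where the window chr1:63326001-63326500 was no longer tested. Cross calls were 2 to 3 with 1 animal left out. Strain calls, also 2, became 6 with at least 10 points, 17 with no minimum difference and 1 with windows shifted by 250 bp. With at least 100 counts strain calls became 0 (3325 windows were called on the autosomes), but neither of the 2 windows was tested there. Strain calls were 1 to 2 with an animal left out, the 1 being without B6 female replicate 2 or without C3 male replicate 2. The sires and dams call, 1, became 2 with flanks of 50 kb and 0 with shifted windows, and was 1 to 1 without each animal. F1 sex calls, 0 of at least 20 points, became 1 with at least 10 points and 1 with no minimum, and dams and virgin F1 calls, 0, became 1 and 2. Both were 0 to 0 without each animal. Blocks with p below 0.05 between crosses, 5, became 3 over CpGs with at least 10 reads in every animal and 3 over CpGs with C3 counts of at least 0.8 times B6, an alternative chosen after seeing the data, and were 4 to 7 without each animal. The 4 strain blocks were 4 to 6, and 3 to 6 without each animal. The 3 blocks between dams and virgin F1 females, a test and alternatives added after seeing the data, became 1 over CpGs farther than 100 bp from an SNV and were 0 to 3 without each animal. The Meg3 start-site block, -5.20 points between crosses, reversed to 0.58 (p = 0.72, exact) with at least 10 reads and to 0.13 (p = 0.94, exact) with that depth limit. Of 914 alternative values of 36 results, each a single window or block in 1 comparison, 789 kept direction and side of the threshold, 123 no longer passed it and 2 reversed. The window of 5 CpGs in the Zdbf2 intron no longer passed without B6C3F1 male replicate 2, B6C3F1 female replicates 2 or 3, C3B6F1 male replicates 2 or 3 or C3B6F1 female replicate 1, and the difference ran from -19.1 to -16.5 points with each animal left out. The cause was not tested.

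Correlations between same-numbered animals of different groups ran from -0.023 to 0.081 over 84 pairs, with a median of 0.0056. Differently numbered animals had -0.047 to 0.038 over 168 pairs, with a median of -0.0035. All were near 0, though those of the same number reached slightly higher, and the numbers were not used to pair samples. These values do not show that the animals are unrelated. With the replicate block, cross calls were 2, strain calls 2, sires and dams calls 1, F1 sex calls 0, dams and virgin F1 calls 0, and blocks with p below 0.05 numbered 4 between crosses, 4 between strains and 4 between dams and virgin F1 females. Where C3 parents have 10 counts at a CpG, the level of 6 animals rests on those 10.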
